A study of Homo sapiens with 12 samples.

Results

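The genes described here are ABCG1, ABCA1, MYLIP, SREBF1, LPCAT3, SMPDL3A and SCARB1, which take part in sterol efflux or are targets of the liver X receptors (LXR), and the receptor genes NR1H2, NR1H3 and RXRA. They are 10 of the 63677 genes in the count table and were chosen by the fall of ABCG1 with ironomycin, the other 9 being listed to ask whether that fall was shared. The mantle cell lymphoma (MCL) lines JEKO1, JVM2 and MAVER1 were studied by RNA-seq after 48 h under 4 treatments: control, ironomycin, ibrutinib, or the 2 drugs together. Ironomycin, made from salinomycin, traps iron inside lysosomes, and ibrutinib inhibits the B-cell receptor kinase BTK. JEKO1 received 50 nM ironomycin and 0.5 μM ibrutinib, JVM2 250 nM and 1.5 μM, and MAVER1 250 nM and 6.25 μM. Each line gave 1 library per treatment, so that the 3 lines are the replicates (n = 3), and dose cannot be told apart from line where it differed between them. JVM2 was also grown in medium with less serum than the other lines, and the labels do not say what the control cells received.

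LXRα (NR1H3) and LXRβ (NR1H2) are nuclear receptors for oxysterols, the oxidised forms of cholesterol. Each binds DNA together with RXRα (RXRA) and, when sterol is plentiful, raises transcription of the transporters ABCA1 and ABCG1, which pass cholesterol out of the cell, and of MYLIP, which marks the LDL receptor for degradation. The opposite arm is driven by SREBP2, which is released when sterol in the endoplasmic reticulum is low and raises cholesterol synthesis and uptake. LXRs bind repeated copies of the half-site AGGTCA in the same direction with 4 bases between them.

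The RefSeq promoter windows (GRCh38.p14, 250 bases before to 50 after the transcript start) held 7 of the 10 genes, and were searched on both strands for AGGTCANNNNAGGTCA with at most 2 mismatches in the 12 fixed bases. The upstream bases of ABCA1, SREBF1 and MYLIP, which had the largest fitted falls after ABCG1 in the average over ibrutinib, are shown in the direction of transcription, so that the ABCA1 match, in capitals, can be seen beside 2 windows without one.
ABCA1 (chr9:104928156-104928405, minus strand): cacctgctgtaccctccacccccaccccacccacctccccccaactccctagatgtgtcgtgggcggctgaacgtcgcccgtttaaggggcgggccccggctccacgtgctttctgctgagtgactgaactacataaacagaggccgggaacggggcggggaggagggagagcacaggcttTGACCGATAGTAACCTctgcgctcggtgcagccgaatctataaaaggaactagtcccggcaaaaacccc
SREBF1 (chr17:17836987-17837236, minus strand): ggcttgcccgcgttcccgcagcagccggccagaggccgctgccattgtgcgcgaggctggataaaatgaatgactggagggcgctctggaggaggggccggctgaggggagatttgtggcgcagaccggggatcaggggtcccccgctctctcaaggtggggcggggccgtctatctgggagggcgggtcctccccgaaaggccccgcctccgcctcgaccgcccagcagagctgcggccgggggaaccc
MYLIP (chr6:16128836-16129085, plus strand): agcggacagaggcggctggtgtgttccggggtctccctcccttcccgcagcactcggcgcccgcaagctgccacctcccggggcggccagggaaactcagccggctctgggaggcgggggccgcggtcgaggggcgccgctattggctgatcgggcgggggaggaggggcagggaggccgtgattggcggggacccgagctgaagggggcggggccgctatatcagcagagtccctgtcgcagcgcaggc
The ABCA1 match spans chr9:104928209-104928224, from 69 to 54 bases before the transcript start. Read on the other strand it is AGGTTActatCGGTCA, with the half-sites in capitals, and it differs from the repeat by C5T and A11C, counted from its 5′ end with the repeat's base first. Of all 35116 promoter windows 822 (2.34%) held such a match, and among the 7 genes with a window ABCA1 alone did, while ABCG1, SMPDL3A and SCARB1 were not searched. SREBF1 has other transcript starts than the one in this window, and its read count covers all of its transcripts.

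The libraries held 35448523 to 38630809 counted reads. Counting error is therefore small for each of the 10 genes except SMPDL3A, ABCA1 in JVM2 and, to a lesser degree, NR1H3. Values are given as CPM, the usual read count scaled to the size of the library, after TMM scaling, which corrects for differences in library composition. Comparisons rest on the quasi-likelihood test of edgeR, with the cell line as a block, and a gene is said to pass at an adjusted p under 0.05 over all genes tested. Over the 3 control libraries and per kilobase of exon (lengths from GENCODE 29), SREBF1 had 19.7 ± 12.8 CPM/kb (SD, n = 3), SCARB1 18.0 ± 6.15, NR1H2 16.7 ± 10.8 and ABCG1 13.4 ± 5.77, and these levels overlapped within their spread. MYLIP at 8.45 ± 3.65 and LPCAT3 at 8.23 ± 1.55 came next and did not differ from each other beyond that spread. RXRA had 4.38 ± 2.04 CPM/kb, ABCA1 2.79 ± 2.37, NR1H3 1.14 ± 0.537 and SMPDL3A 0.292 ± 0.505. LXRβ was thus the more abundant LXR transcript in control cells of each line.

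ABCG1 (ENSG00000160179), whose fall chose the list and which is therefore described without a test, was lower with ironomycin in every line. In JEKO1 its level was 102 CPM in control, 34.2 with ironomycin, 87.8 with ibrutinib and 14.6 with the combination. JVM2 had 41.2, 4.86, 29.7 and 3.48 CPM in the same order, and MAVER1 102.8, 17.4, 110.5 and 15.6 CPM. Within each line both libraries with ironomycin lay below both without it. The fitted log2 fold change, with its standard error (SE), was -2.34 (SE 0.26) for ironomycin against control, a 5.07-fold lower level, and -3.02 (SE 0.27) for both drugs against control, an 8.14-fold lower level.

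ABCA1 (ENSG00000165029), which loads cholesterol onto lipid-poor apolipoprotein A-I, was well expressed in 2 of the lines only. JEKO1 had 53.0 CPM in control, 26.7 with ironomycin, 61.3 with ibrutinib and 29.9 with the combination, and MAVER1 had 40.5, 10.9, 56.6 and 12.1 CPM. In JVM2 the level was 1.37, 0.549, 0.727 and 1.05 CPM, which corresponds to 48, 20, 26 and 39 reads. The libraries with ironomycin were therefore below those without it in JEKO1 and MAVER1, while in JVM2 the library with both drugs lay above the one with ibrutinib alone. Against control the fitted log2 fold change was -1.41 (SE 0.34) with ironomycin, which did not pass (edgeR, adjusted p = 0.072), and ABCA1 fell by 1.11 (SE 0.34) on the log2 scale with both drugs (edgeR, adjusted p = 0.0338). Averaged over the libraries without and with ibrutinib, ABCA1 was 2.55-fold lower with ironomycin, a log2 fold change of -1.35 (SE 0.24, edgeR adjusted p = 0.00277). Here and below, this average treats the pairs of a line as separate, although the lines are the replicates. The call in this average was lost without MAVER1 (-0.85, adjusted p = 0.0655). With both drugs it was lost without MAVER1 (-0.70, adjusted p = 0.195) or JEKO1 (-1.30, adjusted p = 0.164), with library totals (-0.97, adjusted p = 0.0581) and in DESeq2 (-0.97, adjusted p = 0.0933). For ironomycin alone it passed without JVM2 (-1.44, adjusted p = 0.032), without a filter on low counts (-1.43, adjusted p = 0.0159) and in DESeq2 (-1.40, adjusted p = 0.0305).

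SCARB1 (ENSG00000073060) encodes SR-B1, the receptor for high-density lipoprotein through which cholesterol can leave or enter cells, and no change passed for it over the 3 lines. Its level was 84.2 CPM in control, 88.7 with ironomycin, 88.4 with ibrutinib and 97.3 with the combination in JEKO1. JVM2 had 165, 183.3, 158.7 and 194.6 CPM, and MAVER1 168.1, 139.2, 155.1 and 130.5 CPM. Ironomycin libraries were thus the higher ones in JEKO1 and JVM2 and the lower ones in MAVER1. The log2 fold change averaged over ibrutinib was 0.02 (SE 0.08, edgeR adjusted p = 0.851).

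**Figure D1:**
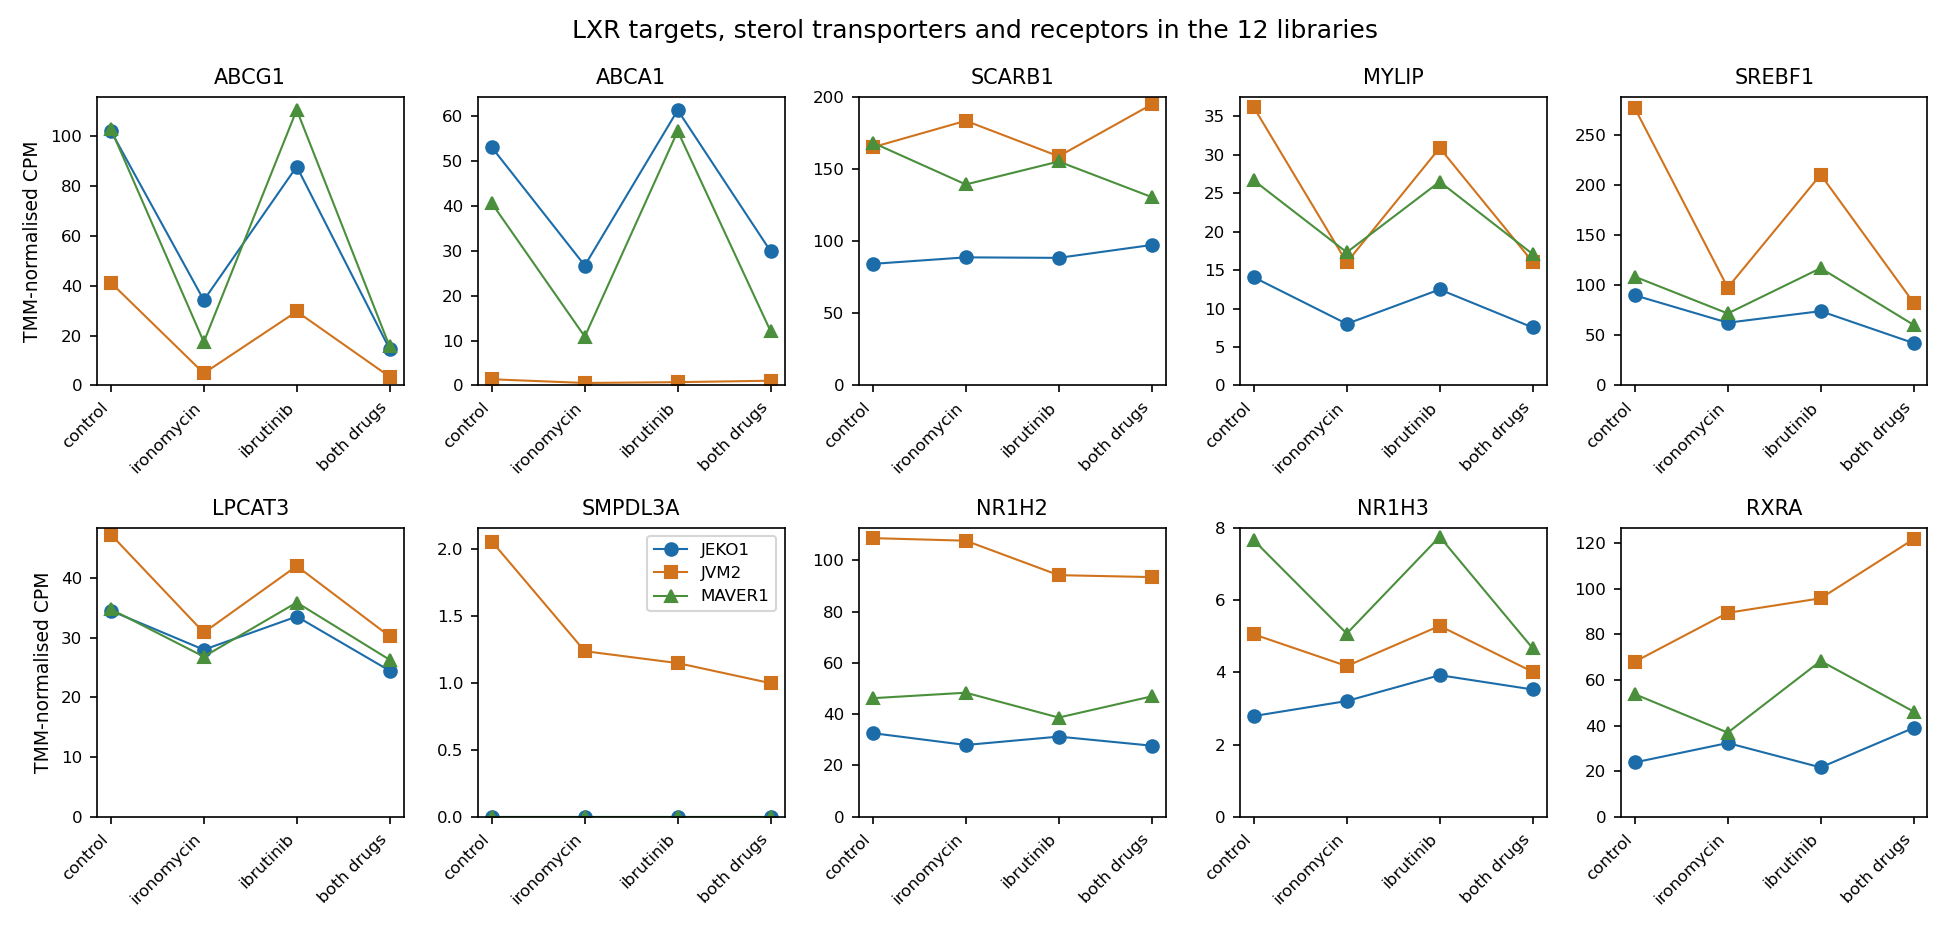
TMM-normalised CPM (linear axis from 0, own scale per panel) of the 10 genes in the 12 libraries, with 1 point per library and lines joining the libraries of a cell line. ABCG1, MYLIP, SREBF1 and LPCAT3 drop with ironomycin and with both drugs in each line, ABCA1 does so in JEKO1 and MAVER1 but is at most 1.37 CPM in JVM2, and SMPDL3A is at 0 in JEKO1 and MAVER1.

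MYLIP (ENSG00000007944), the E3 ubiquitin ligase also called IDOL, was lower with ironomycin in each line. JEKO1 had 14.1 CPM in control, 8.01 with ironomycin, 12.5 with ibrutinib and 7.55 with the combination, JVM2 had 36.2, 16.01, 30.9 and 16.1 CPM, and MAVER1 26.7, 17.3, 26.5 and 17.1 CPM. Both ironomycin libraries of a line lay below both of its other libraries, and adding ibrutinib left the level within 1 CPM of that with ironomycin alone. MYLIP was the only one of the other 9 genes to pass for ironomycin against control at any fold, with a log2 fold change of -0.87 (SE 0.12, edgeR adjusted p = 0.0168), and 0.171% of the 18674 genes tested passed in that direction. This call did not hold without JEKO1 (-0.90, adjusted p = 0.227) or without MAVER1 (-0.999, adjusted p = 0.265), nor in the 6 libraries of the comparison alone (-0.88, adjusted p = 0.0813). The fold change was no smaller in these fits, in which only 3 of 17875, 1 of 18851 and 2 of 15969 genes tested passed. Averaged over ibrutinib MYLIP fell by 0.82 on the log2 scale (SE 0.08, edgeR adjusted p = 0.000496), a 1.77-fold lower level.

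SREBF1 (ENSG00000072310) encodes SREBP-1, the transcription factor of fatty acid synthesis, whose SREBP-1c transcript is an LXR target. Its counts do not separate SREBP-1c from SREBP-1a. JEKO1 had 90.0 CPM in control, 62.6 with ironomycin, 74.2 with ibrutinib and 42.3 with the combination. JVM2 had the highest control level at 276.8 CPM, against 97.7 with ironomycin, 210.5 with ibrutinib and 82.7 with the combination, and MAVER1 had 108.6, 71.9, 117.1 and 60.5 CPM. In every line the ironomycin libraries were below the others, and the combination gave the lowest value. SREBF1 had a log2 fold change of -0.88 (SE 0.18) with ironomycin that did not pass (edgeR, adjusted p = 0.058), and fell by 1.24 (SE 0.18) on the log2 scale with both drugs (edgeR, adjusted p = 0.00332), a 2.36-fold lower level. With both drugs it no longer passed without JEKO1 (-1.32, adjusted p = 0.0659) or without MAVER1 (-1.43, adjusted p = 0.0691), although the fold change was as large. Ironomycin alone passed without JVM2 (-0.58, adjusted p = 0.0348), without a filter on low counts (-0.90, adjusted p = 0.00767) and in DESeq2 (-0.89, adjusted p = 0.000148).

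LPCAT3 (ENSG00000111684), which places polyunsaturated fatty acids into phospholipids, showed the smallest of the falls that passed. Its level was 34.5 CPM in control, 28.0 with ironomycin, 33.6 with ibrutinib and 24.5 with the combination in JEKO1, 47.3, 30.9, 42.0 and 30.3 CPM in JVM2, and 34.8, 26.9, 35.9 and 26.3 CPM in MAVER1. In each line both ironomycin libraries were below the other 2. The log2 fold change against control was -0.43 (SE 0.09) with ironomycin (edgeR, adjusted p = 0.0543), and LPCAT3 fell by 0.52 (SE 0.09) with both drugs (edgeR, adjusted p = 0.00383). The call with both drugs did not hold without JEKO1 (-0.53, adjusted p = 0.0777) or without MAVER1 (-0.57, adjusted p = 0.0828), and ironomycin alone passed in DESeq2 (-0.44, adjusted p = 6.04e-06) and without a filter on low counts (-0.45, adjusted p = 0.0402). In the annotation 3100 of the 4725 exonic bases of LPCAT3 are shared with EMG1 on the opposite strand, and whether reads were counted by strand is not given in the sources used here. EMG1, a ribosome biogenesis gene, had a log2 fold change of -0.51 (SE 0.08, edgeR adjusted p = 0.00199) averaged over ibrutinib, beside -0.45 (SE 0.06, adjusted p = 0.00114) for LPCAT3. If strand was not used, reads of these 2 genes cannot be told apart. SREBF1 shares 556 of 8030 exonic bases with RAI1, whose log2 fold change was -0.04 (SE 0.05, edgeR adjusted p = 0.607), and NR1H3 189 of 4533 with ACP2 (0.06, SE 0.10, edgeR adjusted p = 0.695).

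SMPDL3A (ENSG00000172594), a secreted phosphodiesterase induced by LXR in macrophages, had 0 reads in all libraries of JEKO1 and MAVER1, where no level could be compared. JVM2 had 72 reads in control, 45 with ironomycin, 41 with ibrutinib and 37 with the combination, or 2.06, 1.24, 1.15 and 0.997 CPM. All 3 treated libraries were below the control, and the log2 fold change with ironomycin rests on JVM2 (-0.72, SE 0.47, edgeR adjusted p = 0.435).

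None of the receptor genes passed in the fits over all lines. NR1H2 (ENSG00000131408) had 32.6 CPM in control, 28.0 with ironomycin, 31.3 with ibrutinib and 27.7 with the combination in JEKO1, 108.7, 107.7, 94.3 and 93.5 CPM in JVM2, and 46.2, 48.4, 38.7 and 46.9 CPM in MAVER1. Its log2 fold change averaged over ibrutinib was -0.01 (SE 0.07, edgeR adjusted p = 0.918), and its level differed more between lines than between treatments. NR1H3 (ENSG00000025434) was low, with 2.79, 3.21, 3.92 and 3.53 CPM in JEKO1, 5.05, 4.17, 5.29 and 4.01 CPM in JVM2, and 7.66, 5.07, 7.76 and 4.67 CPM in MAVER1. It was lower with ironomycin in 5 of 6 pairs of libraries that differ in ironomycin alone, with an average log2 fold change of -0.34 (SE 0.13) that did not pass in edgeR (adjusted p = 0.0712), though NR1H3 was counted as passing by DESeq2. RXRA (ENSG00000186350) went in different directions by line: 23.8, 32.3, 21.6 and 38.97 CPM in JEKO1, 68.0, 89.5, 95.8 and 121.8 CPM in JVM2, and 53.8, 36.9, 68.3 and 46.2 CPM in MAVER1. The ironomycin libraries of RXRA were the higher ones in JEKO1 and the lower ones in MAVER1, and its average log2 fold change was 0.15 (SE 0.17, edgeR adjusted p = 0.543).

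**Figure D2:**
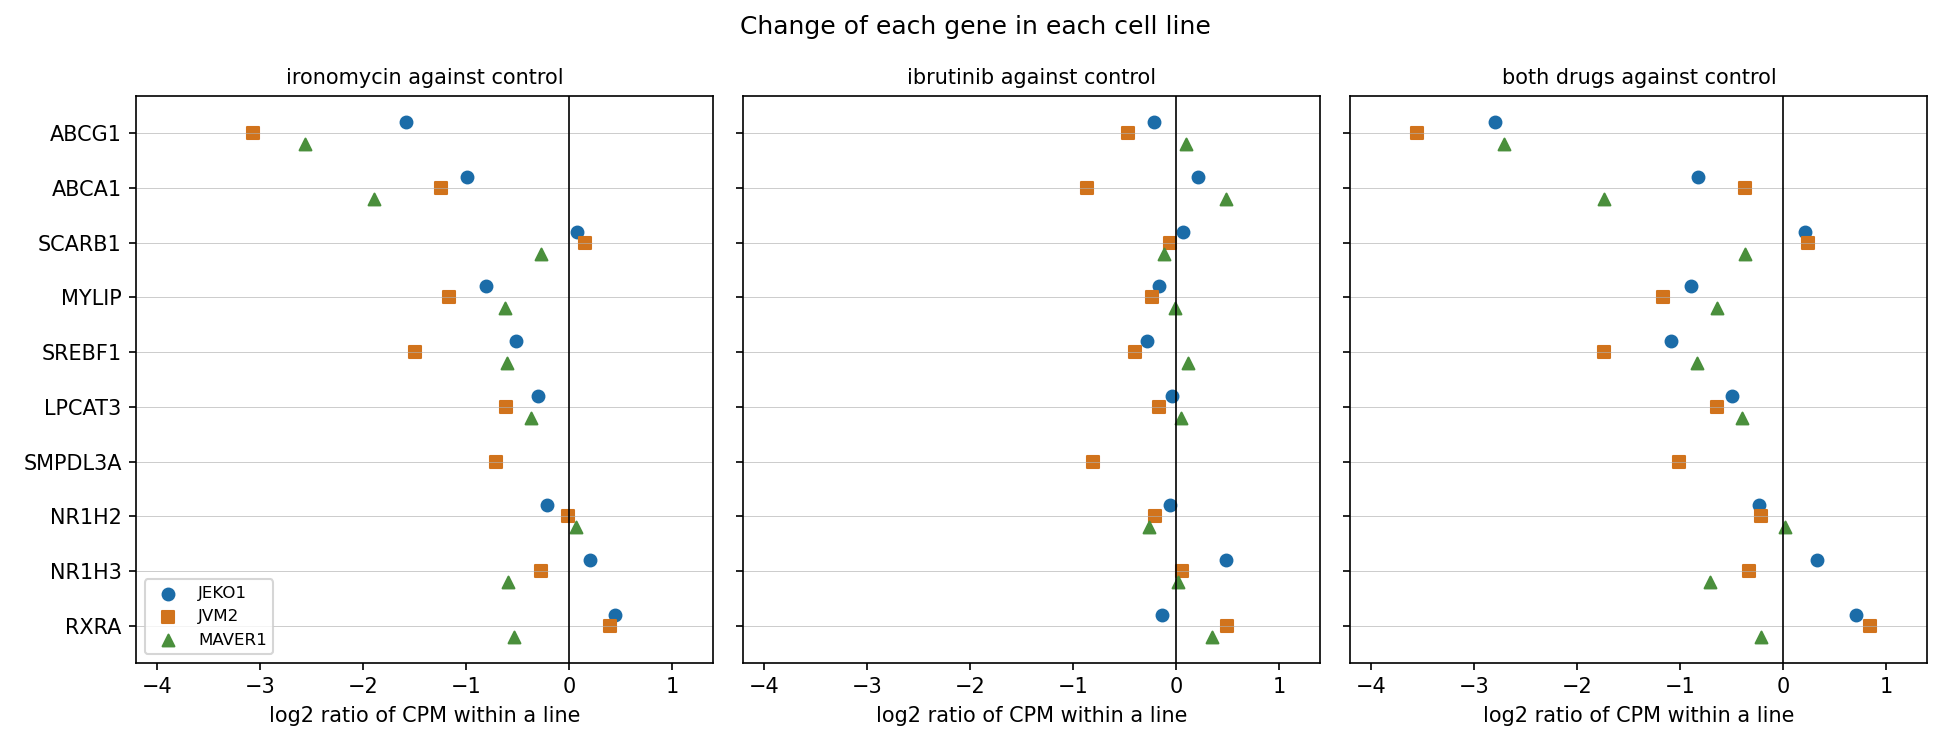
Log2 ratio of CPM to the control library of the same line, for ironomycin, ibrutinib and both drugs, with 1 point per line and genes in rows. ABCG1 lies between -1.58 and -3.07 with ironomycin, MYLIP, SREBF1 and LPCAT3 are below 0 in each line with ironomycin and with both drugs, and for these treatments RXRA is above 0 in JEKO1 and JVM2 and below 0 in MAVER1; SMPDL3A has points in JVM2 only.

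Across the fits, 4 of the 9 genes other than ABCG1 passed in the direction of ABCG1, and these were ABCA1, MYLIP, SREBF1 and LPCAT3. All 4 were lower both with both drugs against control, where 14.0% of all genes tested passed as lower, and in the average over ibrutinib, where 16.3% did. The same 4 passed with both drugs against ibrutinib alone (background 11.5%), with log2 fold changes of -1.30 for ABCA1, -1.04 for SREBF1, -0.77 for MYLIP and -0.46 for LPCAT3 (edgeR, adjusted p from 0.00483 to 0.0217). These comparisons share libraries and are not separate evidence. In the average the pairs of a line count as separate, and 6230 of all genes tested passed there, against 109 for ironomycin against control. With both drugs against control none of the 4 passed without JEKO1 (0 of 9) or without MAVER1 (0 of 9), or with only the 6 libraries compared (0 of 9), while all 4 passed without JVM2. Few genes of any kind passed in those 3 fits: 37 of 17875, 22 of 18851 and 5 of 16136, against 6103 of 17985 without JVM2. The log2 fold changes of MYLIP, SREBF1 and LPCAT3 were -0.91, -1.32 and -0.53 without JEKO1. Without MAVER1 they were -1.04, -1.43 and -0.57, while that of ABCA1 was -1.30 and -0.70 in these 2 fits. With no term for the cell line 0 of the 9 passed, the large differences between lines then entering the error. In the average over ibrutinib, 4 passed without JEKO1 or JVM2 and 3 without MAVER1. A passing gene was called where its log2 fold change was also at least 1 in size, and by that rule 0 of the 9 were called for ironomycin against control (background 0.0857%), where 1, MYLIP, passed at any fold and DESeq2 called ABCA1. By the same rule 2, ABCA1 and SREBF1, were called for both drugs against control (background 1.48%) and against ibrutinib (background 0.744%), and 1, ABCA1, in the average (background 0.884%). Leaving out 1 line moved these counts to between 0 and 2 for both drugs against control and to between 0 and 1 against ibrutinib. In the average over ibrutinib the count was 2 without JEKO1, when SREBF1 was called too, and without MAVER1 the 1 gene called was SREBF1 in place of ABCA1. The median log2 fold change of the 9 genes averaged over ibrutinib was -0.45, beside 0.04 over all genes tested. This median is the value of LPCAT3, whose reads may not be separable from those of EMG1. The 9 genes also include the 3 receptor genes and SMPDL3A (-0.46), which had reads in JVM2 only.

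Taking each pair of libraries of a line that differ in ironomycin alone, 3 of the 9 genes were lower in all 6 pairs, namely MYLIP, SREBF1 and LPCAT3, and 15.5% of all genes tested were. The pairwise log2 ratios ran from -0.62 to -1.17 for MYLIP, from -0.52 to -1.50 for SREBF1 and from -0.30 to -0.61 for LPCAT3, and from -1.58 to -3.07 for ABCG1. ABCA1 was lower in 5 of 6 pairs, from -2.23 to 0.50, the exception being JVM2 with ibrutinib. SCARB1 and RXRA were lower in 2 of 6 pairs and NR1H2 in 4 of 6. ABCG1 thus had the largest fitted fall of the list in every comparison that involved ironomycin against its absence, a consequence in part of how the list was chosen. RNA was measured in bulk, and fewer cells expressing a transcript cannot be told apart from less of it per cell.

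Ibrutinib alone moved none of these genes by a passing amount, and none of the 18674 genes tested passed in edgeR (0%; 680 at an unadjusted p under 0.05). DESeq2 gave 23 passing genes, none of them among the 9, and edgeR gave 10 without a filter on low counts, 16 with only the 6 libraries compared and 1 without MAVER1. ABCG1 had a log2 fold change of -0.20 (SE 0.24), ABCA1 of 0.19 (SE 0.32), SREBF1 of -0.20 (SE 0.18) and MYLIP of -0.14 (SE 0.11). Adding ibrutinib to ironomycin likewise gave no passing gene in edgeR (0%; 1970 of 18674 at an unadjusted p under 0.05), against 107 in DESeq2, none of them among the 9, and in edgeR 26 without the filter, 62 with only the 6 libraries compared and 7 without JVM2. ABCG1 was lower by 0.68 on the log2 scale (SE 0.26) with both drugs than with ironomycin, with 34.2 against 14.6 CPM in JEKO1 and nearer values in the other lines, and the value was -0.29 without JEKO1. SREBF1 had a value of -0.36 (SE 0.18, edgeR adjusted p = 0.488) and RXRA of 0.35 (SE 0.24, edgeR adjusted p = 0.602). No gene passed for the departure from additivity, that is, from adding up the log2 changes of each drug (0%; 367 of 18674 at an unadjusted p under 0.05). For ABCG1 the departure was -0.48 (SE 0.35), and for ABCA1, MYLIP, SREBF1 and LPCAT3 it lay between -0.16 and 0.11. A library scaling by total reads alone shifted the median log2 fold change of all genes from 0.05 to 0.18 for both drugs against control, so that all values there are less negative on that scale.

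The size of the ironomycin effect was then estimated in each line, with the libraries without and with ibrutinib standing in as the 2 libraries of a state. ABCG1 was 4.05-fold lower with ironomycin in JEKO1, 8.48-fold in JVM2 and 6.54-fold in MAVER1. ABCA1 fell by 1.01 (SE 0.16) on the log2 scale in JEKO1 (edgeR, adjusted p = 0.00117) and was at -2.07 (SE 0.17) in MAVER1 (edgeR, adjusted p = 2.17e-05). In JVM2, where ABCG1 changed most, the ABCA1 value was -0.40 (SE 0.35, edgeR adjusted p = 0.573) on few reads. MYLIP fell in each line, by 0.77 in JEKO1, 1.06 in JVM2 and 0.63 in MAVER1 on the log2 scale (edgeR, adjusted p from 0.000399 to 0.000768). SREBF1 fell by 0.66 in JEKO1, 1.43 in JVM2 and 0.79 in MAVER1 (edgeR, adjusted p from 0.000673 to 0.00256). LPCAT3 fell by 0.38, 0.55 and 0.41 in the same order (edgeR, adjusted p from 0.00409 to 0.0101). As lower, 16.1% of all genes tested passed in JEKO1, 0.868% in JVM2 and 15.7% in MAVER1.

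RXRA, NR1H3 and SCARB1 also passed within single lines. RXRA rose by 0.63 (SE 0.13) on the log2 scale in JEKO1 (edgeR, adjusted p = 0.00349), where 17.3% of genes passed as higher, and fell by 0.56 (SE 0.12) in MAVER1 (edgeR, adjusted p = 0.00542). In MAVER1 NR1H3 fell by 0.66 (SE 0.16, edgeR adjusted p = 0.0089) and SCARB1 by 0.26 (SE 0.09, edgeR adjusted p = 0.0345). MAVER1 was therefore the line in which LXRα, RXRα and ABCA1 transcripts were all lower with ironomycin. The test of the difference between lines passed for ABCA1 (edgeR, adjusted p = 0.0185), RXRA (edgeR, adjusted p = 0.00561) and SREBF1 (edgeR, adjusted p = 0.0346), beside 7.97% of all genes tested. Without MAVER1 SREBF1 was the 1 gene of the 9 that still differed, and without JVM2 ABCA1 and RXRA still did but SREBF1 did not. For MYLIP (adjusted p = 0.129) and LPCAT3 (adjusted p = 0.594) no difference between lines was detected in edgeR.

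**Figure D3:**
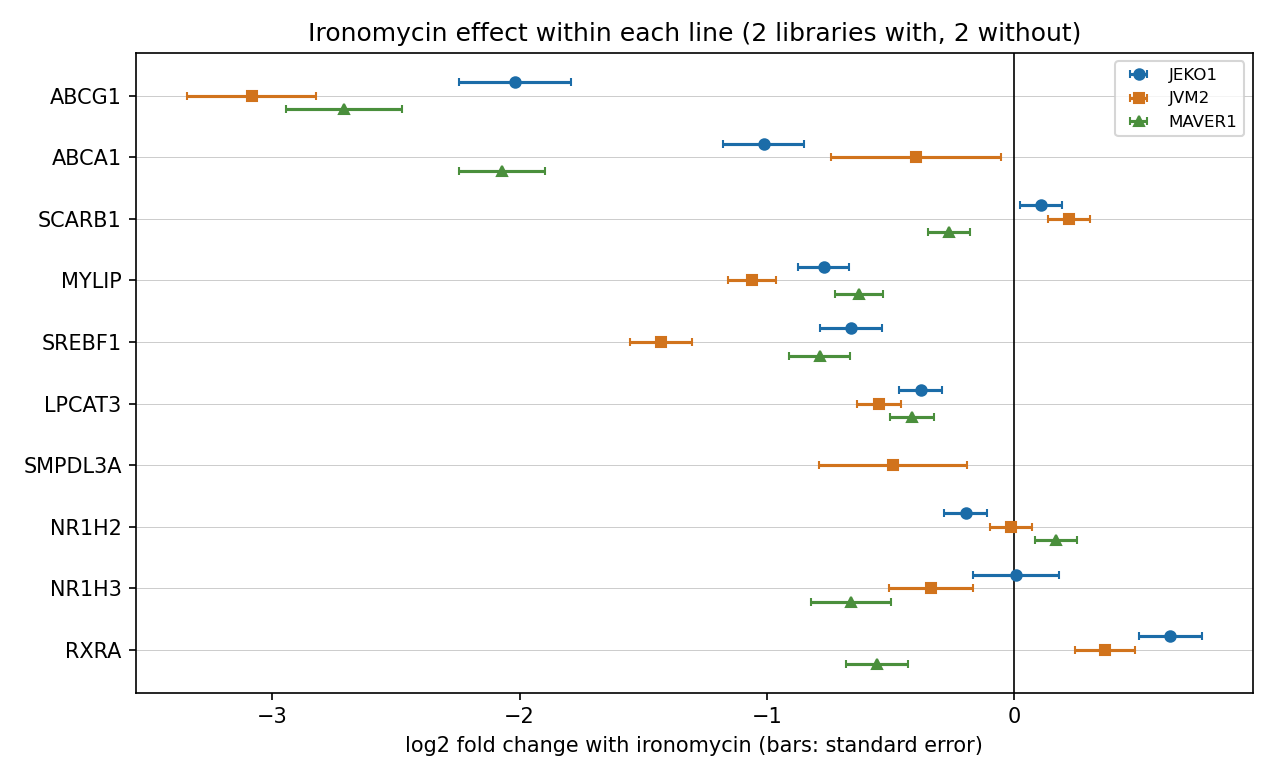
Fitted log2 fold change with ironomycin in each line (x axis), with bars for the standard error, from 2 libraries with and 2 without ironomycin per line. MYLIP, SREBF1 and LPCAT3 are negative in all 3 lines, ABCA1 ranges from -0.40 in JVM2 to -2.07 in MAVER1, and RXRA changes sign between JEKO1 (0.63) and MAVER1 (-0.56); SMPDL3A is shown for JVM2 only.

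Lists of genes of the same pathways were then examined. Of 20 other described LXR targets 13 were expressed enough to be tested, and as a group they were not lower. Some of the 13 were too low in single lines for a fall to be seen there. LPL had at most 5 reads in JVM2 and MAVER1, PNPLA3 0 and APOC1 at most 3 in JVM2, and TTC39B at most 4 in MAVER1. In the average over ibrutinib, 0 of the 13 passed as lower and 2 as higher (background 16.3% and 17.1%), and their median log2 fold change was 0.05, beside 0.04 over all genes. The 2 higher genes were EEPD1, which promotes efflux through ABCA1 and had 0.63 (SE 0.22, edgeR adjusted p = 0.0479), and RNF145, a ubiquitin ligase of sterol sensing with 0.30 (SE 0.08, edgeR adjusted p = 0.0181). With both drugs against control 1 of the 13 passed as lower and 0 as higher (background 14.0% and 14.2%). The lipogenic targets FASN and SCD had averages of 0.16 (SE 0.09, edgeR adjusted p = 0.168) and 0.05 (SE 0.08, edgeR adjusted p = 0.678), and were picked out after their values were seen.

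SREBF1 was set beside 9 genes listed as its targets in lipid synthesis, FASN and SCD being counted with the LXR targets above. Of the 9, 0 passed as lower in the average over ibrutinib and 2 passed as higher (background 16.3% and 17.1%). The 2 higher genes were FADS1, a desaturase of polyunsaturated fatty acids (0.54, SE 0.12, edgeR adjusted p = 0.0061), and the elongase ELOVL5 (0.23, SE 0.07, edgeR adjusted p = 0.0309). ACLY, which makes cytosolic acetyl-CoA, was lower with both drugs against control (-0.34, SE 0.09, edgeR adjusted p = 0.0222, background 14.0%). The median of the 9 was 0.14 in the average.

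Targets of SREBP2 passed in the direction opposite to that of ABCG1. Of the 12 tested, 6 passed as higher with ironomycin against control (background 0.412%), 8 with both drugs (background 14.2%) and 11 in the average (background 17.1%), and none passed as lower in these 3 comparisons. With ironomycin against control the count was 0 without JEKO1, 0 without MAVER1 and 0 with only the 6 libraries compared. In these fits only 3 of 17875, 1 of 18851 and 2 of 15969 genes tested passed at any fold. The list median there was 0.57, 0.41 and 0.51, beside 0.50 in the main fit. With both drugs the count was also 0 in each of these fits, where 37 of 17875, 22 of 18851 and 5 of 16136 genes tested passed. The list median was then 0.43, 0.26 and 0.38, beside 0.37. In the average the count was 8 without JEKO1 and 6 without MAVER1, where 1750 and 509 genes tested passed. In 9 of the 12 the ironomycin library was higher in all 6 pairs (background 14.8%), and their median log2 fold change in the average was 0.50. HMGCS1, which makes the precursor of mevalonate, rose with ironomycin, having 138.7 CPM in control and 262.9 with the drug in JEKO1, 134.1 and 193.5 CPM in JVM2, and 58.4 and 157.3 CPM in MAVER1 (log2 fold change 0.96, SE 0.18, edgeR adjusted p = 0.047). LSS, which closes the sterol ring, had 158.1 and 214.6 CPM in JEKO1, 216.7 and 338.9 in JVM2, and 89.0 and 172.5 in MAVER1 (0.68, SE 0.12, edgeR adjusted p = 0.0394). The gene for the LDL receptor, which the protein of MYLIP degrades, rose by 0.26 (SE 0.07) in the average (edgeR, adjusted p = 0.017).

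Among 20 genes of sterol storage and intracellular transport 11 passed as higher in the average over ibrutinib (background 17.1%), none as lower (background 16.3%), and 10 were higher in all 6 pairs (background 14.8%). The 11 became 4 without JEKO1, 8 without JVM2 and 3 without MAVER1. In either direction 1750 of 17875, 6760 of 17985 and 509 of 18851 genes tested passed in these fits. NPC2, which hands cholesterol out of the lysosome, rose by 0.85 (SE 0.18, edgeR adjusted p = 0.00603), from 16.4 CPM in control to 48.2 with ironomycin in MAVER1, from 21.1 to 29.2 in JEKO1 and from 33.5 to 41.7 in JVM2. GRAMD1B, which carries plasma membrane cholesterol to the endoplasmic reticulum, rose by 0.67 (SE 0.21, edgeR adjusted p = 0.0297). The median of the list was 0.21.

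Of 7 tested genes that make or clear oxysterols and their sterol precursors, 3 passed as higher in the average (background 17.1%), SC5D (0.55, SE 0.08, edgeR adjusted p = 0.00171) and DHCR7 (0.33, SE 0.08, edgeR adjusted p = 0.00933) among them, which act in the last steps of cholesterol synthesis, and none passed as lower. EBP, the isomerase of those steps, was lower with both drugs against control (-0.44, SE 0.14, edgeR adjusted p = 0.0372, background 14.0%). CYP46A1, which makes 24-hydroxycholesterol, was called as higher with both drugs (1.41, SE 0.40, edgeR adjusted p = 0.0354), as were 898 of the 18674 genes tested. CYP46A1 had 34 and 106 reads in control and combination libraries of JEKO1, 6 and 13 in those of MAVER1, and none in JVM2. CH25H, which makes 25-hydroxycholesterol and was singled out after its values were seen, was not tested, being too low in most libraries. It had 0 reads in control, 69 with ironomycin, 9 with ibrutinib and 123 with the combination in JEKO1, whereas every library of JVM2 and MAVER1 had 0. Among 13 receptor partners and coregulators, 4 passed as higher, NCOA2, CREBBP and RXRB among them, and 2 as lower (HDAC3 and NCOA5) in the average, beside 17.1% and 16.3% of all genes tested. None of the 13 passed in either direction without JEKO1 or without MAVER1, where 1750 of 17875 and 509 of 18851 genes tested passed. The deacetylase HDAC3, part of the corepressor complexes of nuclear receptors, had -0.32 (SE 0.07, edgeR adjusted p = 0.00564).

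**Figure D4:**
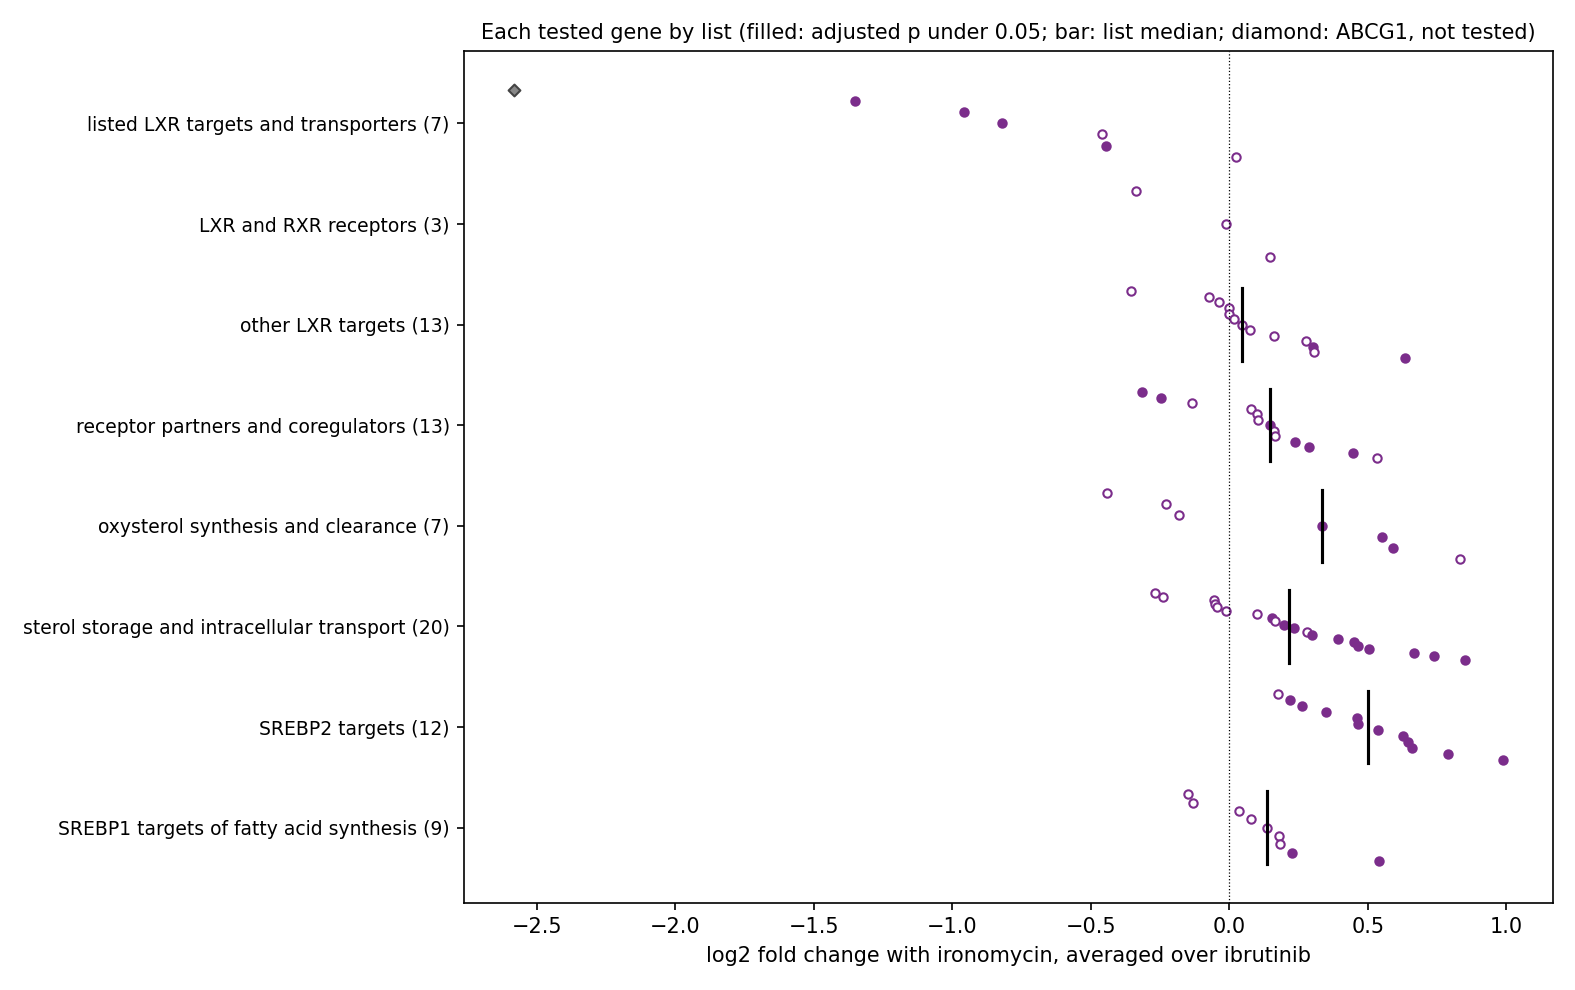
Log2 fold change with ironomycin averaged over ibrutinib (x axis) for each tested gene, grouped by list with the number of genes in brackets; filled points passed at an adjusted p under 0.05 in edgeR, bars mark list medians, and the diamond is ABCG1, which was not tested. ABCA1, SREBF1, MYLIP and LPCAT3 are the filled points left of 0 in the top row, none of the 13 other LXR targets is filled left of 0, and 11 of 12 SREBP2 targets are filled right of 0.

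The genes whose pattern was most like that of ABCG1 were found by the root mean square difference of the 9 log2 ratios to control (3 treatments in 3 lines) among 11668 genes. STAP1, a B-cell adaptor protein, was nearest at 0.964 log2 units, and for ironomycin its ratios were -2.0, -1.58 and -1.44 in JEKO1, JVM2 and MAVER1. It was followed by ENSG00000240754 at 1.06, which the name table does not pair with a symbol, FCRL5, an Fc receptor-like protein of B cells, at 1.21, ENSG00000197459, also without a symbol, at 1.32, and GRAP2, an adaptor protein, at 1.33. STAP1 and FCRL5 differ from ABCG1 in that their log2 ratios with ibrutinib alone were -2.12 and -1.96 in JVM2. Of the genes described here SREBF1 was ranked 10, ABCA1 22 and MYLIP 33, whereas LPCAT3 was ranked 442, NR1H3 2860, NR1H2 4453, SCARB1 6355 and RXRA 9857. These ranks use the ratios that chose ABCG1 and mostly follow the size of the fall, and they are a description.

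The cell type was checked by marker genes. All 6 B-cell markers were detected in every line, and their summed level was 1964 to 2105 CPM without and 1440 to 1464 CPM with ironomycin in JEKO1, 1789 to 1812 and 1220 to 1305 CPM in MAVER1, and 1827 to 1899 and 1809 to 1859 CPM in JVM2. In the average over ibrutinib 4 of the 6 passed as lower (background 16.3%), CD22, CD79A and CD79B among them, and 1 did without JEKO1 and 0 without MAVER1. The part of this change in the fall of the LXR targets was not tested. Markers of monocytes and macrophages, in which ABCA1 and ABCG1 are best known, summed to 2.04 to 18.6 CPM over all libraries, with MARCO at 0 reads in JEKO1. In the average 1 of 6 tested, LYZ, passed as lower (background 16.3%), on 4 to 35 reads. T-cell markers summed to at most 3.32 CPM, with CD3D at 0 in JVM2 and MAVER1. Of these, 2 of 3 tested passed as lower in the average (background 16.3%), while for both lists none did without MAVER1. Of the MCL markers, SOX11 had 0 reads and CD5 at most 2 in JVM2, in which CCND1 had 8025 to 11280 reads against at least 92232 in the other lines. CCND2 went the other way, with 8501 to 9648 reads in JVM2 against at most 32 in the other lines.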

How the data were processed

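RNA-seq was performed by the authors on 12 libraries of polyadenylated RNA from 3 MCL cell lines. The deposited values are raw read counts for each Ensembl gene and were not normalized. Per the labels the processing named STAR, DESeq2 and GRCh37, while the counting tool, its strand setting and all versions are not given in the sources used here. No column was left unused (0). Reads shared with an overlapping gene could be assigned to either, depending on strand.

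Tests on the counts used edgeR 4.0.16 under R 4.3.3 (TMM, filterByExpr, quasi-likelihood F-test, Benjamini-Hochberg adjustment over 18674 genes), with treatment and cell line as terms in 1 fit of all 12 libraries (6 residual degrees of freedom). A gene passed at an adjusted p under 0.05, and was called when its log2 fold change was also at least 1 in size. A further fit gave ironomycin its own effect in each line (5 residual degrees of freedom). Cell line was a block because libraries of a line share a cell line: their deviations from treatment means correlated at 0.926 to 0.976 (18 pairs), against -0.705 to -0.127 between lines (48 pairs). The between-line values are negative in part because the treatment mean over the lines was subtracted. In the fit of treatment and cell line, the p-values measure the spread of the treatment effects between lines, which differed in dose. That fit has no term for an ironomycin effect that differs by line, so the average over ibrutinib treats the pairs of a line as separate. In the further fit, p-values rest on libraries that differ in ibrutinib, and they do not measure the spread of the ironomycin effect between lines. The standard error is the log2 fold change over the root of the F statistic.

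The members and lists were chosen with earlier results of these data known. All 10 members were named; of the 6 lists, called genes and the 2 with the largest change with both drugs; and the 5 genes most like ABCG1 (mean log2 CPM of at least 1). Other list genes were named after their values were seen, where a count was small, and some list genes that the rule names are not reported here. All 10 members passed the filter on low counts, SMPDL3A through JVM2. ACACA was not matched to a row. Promoter sequences are RefSeq's (GRCh38.p14), and exon lengths and overlaps are from GENCODE 29; no coordinate was carried to the build of the counts.

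Alternatives were other scalings, no filter, DESeq2 1.42.0, no cell line term, only the libraries compared, and leaving out each line. Counts of genes passing at any fold were added to these after seeing the data. The scripts were tested on simulated data. Tables and plots used Python 3.11.15, pandas 2.3.3 and matplotlib 3.10.9.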

Additional observations from a re-analysis of the deposited data

Results flagged for a closer look

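The ironomycin effect differed between JEKO1, JVM2 and MAVER1 for 3 of the 9 genes tested, by the test of that difference in edgeR. For ABCA1 the adjusted p was 0.0185, with fitted log2 fold changes of -1.01, -0.40 and -2.07 in the order of the lines. For RXRA it was 0.00561, with 0.63, 0.37 and -0.56, so that the direction changed in MAVER1. For SREBF1 it was 0.0346, with -0.66, -1.43 and -0.79. Without MAVER1 SREBF1 was the 1 gene that still differed, and without JVM2 its difference no longer passed. The ibrutinib dose also differed between all lines, the ironomycin dose between JEKO1 and the others, and the serum between JVM2 and the others, and these cannot be told apart from the line.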

How the results depend on the processing

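Of the 9 genes other than ABCG1, 0 were called for ironomycin against control, but 1 was without a filter on low counts and in DESeq2 (ABCA1 in both), and 0 to 1 when a line was left out. With the fold minimum dropped 1 passed there (MYLIP), against 4 without the filter and 4 in DESeq2, 0 with only the 6 libraries compared and 0 to 3 without a line. For both drugs against control the count of 2 became 1 with library totals and 1 in DESeq2, 0 with only the 6 libraries compared, 0 to 2 without a line and 4 with no fold minimum. The 4 passing at any fold became 0 with the 6 libraries and 0 to 4 without a line. Against ibrutinib the count of 2 became 1 with library totals, in DESeq2 and with the 6 libraries, 0 to 1 without a line and 4 with no fold minimum. In the average over ibrutinib the count of 1 became 1 to 2 without a line and 4 with no fold minimum. The count of 3 differing between lines became 1 without MAVER1 and lay between 1 and 4 over the alternatives run. Without the cell line as a replicate block, 0 genes were called or passed in any of these comparisons, since differences between lines then enter the error, and the counts of 2, 2 and 1 became 0. The SREBP2 targets passing as higher, 6 with ironomycin, 8 with both drugs and 11 in the average, became 0 in each with no replicate block, 0 in the first 2 with the 6 libraries compared, and 0 to 7, 0 to 8 and 6 to 10 without a line. The 11 genes of sterol storage and transport became 0 with no replicate block and 3 to 8 without a line. The alternatives for passing counts at any fold and for these lists were chosen after seeing the data. Over all genes tested, ironomycin against control gave 3 passing genes without JEKO1, 1 without MAVER1 and 2 with the 6 libraries, against 109 in the main fit. Both drugs against control gave 37, 22 and 5, against 5268. The average over ibrutinib gave 1750 without JEKO1 and 509 without MAVER1, against 6230. Counts of 0 in such fits thus lie beside few passing genes of any kind. The remaining alternatives for the counts named here stayed within 1.5 times, ibrutinib against control and both drugs against ironomycin stayed at 0 of the 9, and no fold change called for a single gene reversed. The other causes were not tested. Depth limits SMPDL3A, ABCA1 in JVM2 and, in single lines, some of the other LXR targets.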
